A study of Mus musculus with 145 samples.

Results

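The genes described here are 9 components of the canonical Wnt pathway, *Axin2*, *Sp5*, *Nkd1*, *Lgr5*, *Cdx1*, *Lef1*, *Tcf7*, *Tcf7l1* and *Wnt7b*, taken by name from the 24615 genes of a single-cell expression table of mouse spermatogonial stem cells (SSCs) under reprogramming to germline-derived pluripotent stem cells (gPSCs). All 9 were listed in that table. The 17042 genes of a second table, of cells treated with 5 chemicals (5C), and the 16052 genes of its control table, of cells given the solvent DMSO, held 7 of the 9 in common. *Wnt7b* was listed in neither of them and *Lgr5* only in the 5C table.

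In canonical Wnt signalling a secreted Wnt ligand binds a Frizzled receptor with the co-receptor Lrp5 or Lrp6, a cytoplasmic complex built on Axin and Apc stops marking beta-catenin for destruction, and beta-catenin enters the nucleus and binds the DNA-binding proteins of the TCF/LEF family. *Axin2*, *Sp5*, *Nkd1*, *Lgr5* and *Cdx1* are transcribed in response to that complex in many tissues, and the products of the first 3 act back on the pathway. In mouse embryonic stem cells (ESCs), the GSK3 inhibitor of ground-state medium mimics the signal and relieves repression by Tcf7l1, also called Tcf3, at pluripotency genes.

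The SSCs came from B6D2F1 male pups of a C57BL/6 female and a DBA male (DBA/2 in the study's methods), with an *Oct4*-EGFP transgene that reports activity of the *Oct4* promoter. SSCs were kept on feeder cells in medium with EGF, bFGF, GDNF and ESGRO (a LIF preparation), and cells were picked from SSC-like and PSC-like colonies. The original condition, with no added chemical, gave 46 libraries of modified STRT-seq, a plate method that counts RNA molecules by unique molecular identifiers (UMIs), with 4339 cells over 10 days of culture between day 0 and day 27. The line gPSC-1 at passage 1 and at passage 15 and an ESC line, derived from blastocysts of the same background, gave 1 library each, grown in N2B27 medium with a MEK inhibitor, the GSK3 inhibitor CHIR99021 and LIF. The RNA part of scTrio-seq2 gave 8 samples under 5C (SGC707, vitamin C, EGCG, daphnetin and TUDCA), with cells of days 12, 14 and 16, and 5 samples under DMSO, with cells of days 20 and 24 and, in replicate 5, 8 cells of day 0. Treatment and day therefore cannot be told apart in those samples.

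The authors sorted the cells of the original condition into 18 clusters, named SSC1 to SSC4, reprogramming clusters RPG1 to RPG4, which lead to the pluripotent state, and early-pluripotency, meiotic, fibroblast and neural branches. They assigned the scTrio-seq2 cells to the same classes by prediction. UMIs were summed over the cells of each class in each library with at least 5 of them, which left 36 SSC1-4, 7 RPG1, 3 RPG2, 8 RPG3 and 2 RPG4 libraries, with 433094 to 34168335 UMIs each. Levels are given as UMIs per 1000000 UMIs of the sum (CPM), so they are shares of a class's RNA. The library was the replicate, and since nothing says that libraries came from separate cultures, p-values measure the spread between libraries, which may be technical. The clusters were made from these same transcriptomes, RPG1 is the reference of 3 comparisons, and 7 libraries gave cells to both RPG1 and RPG3. All 96 well barcodes were used in more than 1 library, as the plate method is built. Summed over 8 pluripotency markers, RPG2 and RPG3 held 2348 to 3022 CPM and SSC1-4 60.8 to 280.9 CPM. Markers of feeders and fibroblasts, 11 genes, summed to 15.4 to 173 CPM in SSC1-4, 45.0 to 81.3 in RPG1 and 4.81 to 40.8 in RPG2, RPG3 and RPG4, so they were lower where the pluripotency genes were higher. *Lum* and *Dcn* were at 0 in every RPG2 and RPG4 library, while *Col1a1* or *Thy1* led the sum there. Markers of SSCs, 8 genes, summed to 1545 to 1870 CPM in RPG1, led by *Dazl*. They summed to 518 to 899 in RPG2, RPG3 and RPG4, led by *Sall4* in each. The same sum was 498 CPM in gPSC-1 at passage 1, 640 at passage 15 and 520 in ESCs. The part of either list in the results was not tested.

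The promoters of 3 members are shown because the letters that TCF/LEF proteins read differ between them. The shared core of those sites is CTTTGA or CTTTGT, and in the 250 bases before each start, written 5′ to 3′ in the direction of the gene from RefSeq on GRCm38.p6 (the assembly that mm10 names), every match on either strand is in capitals. The *Sp5* promoter lies at chr2:70474673-70474922 on the plus strand, that of *Axin2* at chr11:108920099-108920348 on the plus strand, and *Lef1*, also on the plus strand, is shown for its first start, chr3:131110047-131110296, and for a start inside the gene, chr3:131156044-131156293.
Sp5: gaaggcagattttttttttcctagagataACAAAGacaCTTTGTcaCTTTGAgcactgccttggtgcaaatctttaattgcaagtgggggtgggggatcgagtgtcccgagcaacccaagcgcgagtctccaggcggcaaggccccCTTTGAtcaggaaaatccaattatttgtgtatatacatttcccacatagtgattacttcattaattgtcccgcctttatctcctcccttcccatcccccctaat
Axin2: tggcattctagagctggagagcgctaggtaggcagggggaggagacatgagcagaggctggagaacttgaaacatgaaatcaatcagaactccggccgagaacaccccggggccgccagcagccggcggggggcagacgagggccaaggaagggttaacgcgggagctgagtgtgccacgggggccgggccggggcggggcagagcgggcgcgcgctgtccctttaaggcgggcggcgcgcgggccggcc
Lef1 first start: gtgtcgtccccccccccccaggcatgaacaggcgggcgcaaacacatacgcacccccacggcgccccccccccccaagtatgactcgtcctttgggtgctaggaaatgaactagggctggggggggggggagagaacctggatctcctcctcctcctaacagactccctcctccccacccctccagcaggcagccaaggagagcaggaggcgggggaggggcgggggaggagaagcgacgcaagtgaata
Lef1 internal start: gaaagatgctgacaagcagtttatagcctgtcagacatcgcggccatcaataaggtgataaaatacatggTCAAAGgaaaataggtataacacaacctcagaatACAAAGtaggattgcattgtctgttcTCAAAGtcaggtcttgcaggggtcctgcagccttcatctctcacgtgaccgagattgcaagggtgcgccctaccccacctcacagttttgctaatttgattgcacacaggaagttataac
The *Sp5* window held 4 matches, at 221, 212, 204 and 104 bases before the start. No match lay in the *Axin2* window or in the first *Lef1* window, and the internal *Lef1* window shown held 3. Among windows not shown, *Lef1* held 0 at chr3:131110073-131110322 and 0 at chr3:131112541-131112790, the latter also before a start inside the gene. Those of *Tcf7* and *Nkd1* held 0 and that of *Tcf7l1* held 1. The windows shown were picked for their differing matches, so their place among all windows is description only. Of all 32851 promoter windows of this length in the table, 27.6% held at least 1 match, 0.776% at least 3 and 0.0944% at least 4. A match is a run of letters and not a measured binding site, and these windows leave out distal elements.

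In the annotation of the same assembly *Sp5* (chromosome 2, 70474923 to 70477729) overlaps no other gene. *Axin2* (chromosome 11, 108920349 to 108950783) overlaps the antisense RNA *Gm11670*, *Lef1* (chromosome 3, 131110471 to 131224356) *Gm43352* and *Gm42449*, *Tcf7* (chromosome 11, 52252371 to 52283014) *Gm26551* and *A630014C17Rik*, *Nkd1* (chromosome 8, 88521354 to 88594884) *Gm45496*, *Wnt7b* (chromosome 15, 85535437 to 85582473) *AU022754* and *Lgr5* (chromosome 10, 115450311 to 115587780) *A930009A15Rik*. *Tcf7l1* (chromosome 6, 72626378 to 72789254) overlaps 6 transcripts without a known protein. Whether counting used the strand is not given in the sources used here, so reads of such overlaps may be shared.

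**Figure D1:**
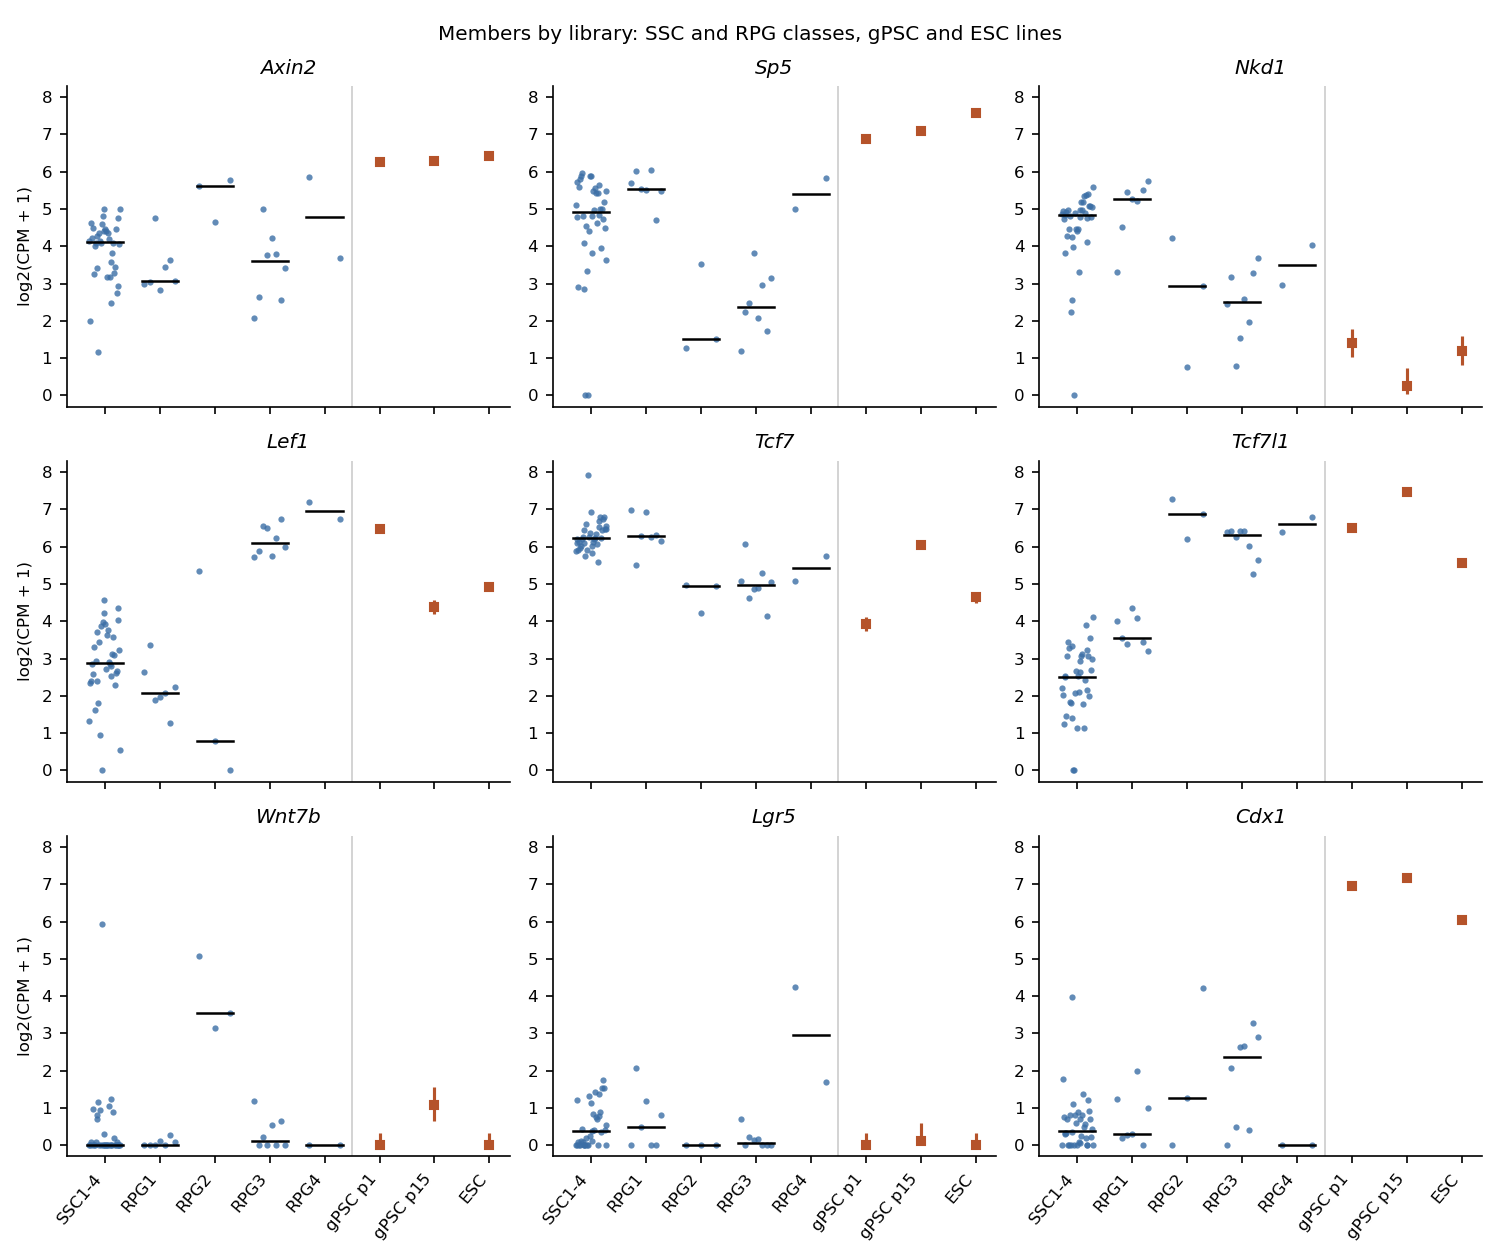
Level of each member, as log2(CPM + 1), in every library of SSC1-4, RPG1, RPG2, RPG3 and RPG4 (blue points, black line at the median) and in the 1 library each of gPSC p1, gPSC p15 and ESC (squares, bar from the lower to the upper 95% Poisson limit). *Tcf7l1* and *Lef1* sit above all RPG1 libraries in all 8 RPG3 libraries, and *Sp5* sits below them there and lies in the RPG1 range in both RPG4 libraries.

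Against RPG1, the members moved in both directions in the later reprogramming clusters. The RPG1 libraries came from days 18, 20 and 23 and the RPG2 libraries from days 12 and 14, so cluster and day cannot be told apart between them, while RPG3 had libraries of days 12, 18, 20 and 23 and RPG4 of day 20. Of 8 members tested in RPG2, 5 were called, at an adjusted p below 0.01 and a natural-log fold change of at least 1, of 7 in RPG3 4, and of 8 in RPG4 2. Among the 5 of RPG2, *Wnt7b* had 217 UMIs in RPG2 and 4 in RPG1. It passed the filter on low counts through RPG2 alone, so its call depends on its being high there. The 5 became 1, *Tcf7l1*, with sums per batch and day. They became 2, *Tcf7l1* and *Wnt7b*, within B2, the batch of all 3 RPG2 libraries. Over all genes tested the share called was 16.1% in RPG2, 20.8% in RPG3 and 14.2% in RPG4. The median log2 fold change of the members tested was 1.95 in RPG2, 0.41 in RPG3 and 0.79 in RPG4. Over all genes it was -0.06, -0.002 and -0.18. In RPG2 the 8 values ran from -3.2 to 8.2, and *Lgr5*, with 0 UMIs there and 58 in RPG1, was not tested. The members were chosen with earlier results of these data known, so these medians and shares are description only. In the step before, from SSC1-4 to RPG1, 0 of 9 members were called by edgeR and 0 by DESeq2, with 4 at an unadjusted p below 0.05, where 0.971% of all genes were called.

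*Sp5* encodes a zinc-finger repressor and is among the most general targets of beta-catenin. The 7 RPG1 libraries ran from 25.1 to 65.3 CPM with a median of 45.4. The RPG2 libraries had 1.42, 10.4 and 1.87 CPM, and the 8 RPG3 libraries 1.27 to 13.1 with a median of 4.16. The 69 UMIs of RPG2 came from 23 of 47 cells, and 1 cell held 52.2% of them. No library of RPG2 or RPG3 reached the lowest of RPG1. *Sp5* was lower by -3.19 ± 0.57 (log2 fold change ± SE) in RPG2 and by -2.96 ± 0.37 in RPG3 (edgeR quasi-likelihood test, Benjamini-Hochberg adjusted p = 0.000331 and 7.1e-07). Within batch B1 the RPG3 value was -2.60 and within batch B2 -3.90 (adjusted p = 6.36e-05 and 0.00342), and in RPG2, which came from B2 alone, it was -3.52 there (adjusted p = 0.0244). Without RPG2 day 14 replicate 5, the highest of the 3, the RPG2 value was -4.70 (adjusted p = 9.98e-06). The sums of 5 mesendoderm markers were 54.5 to 90.5 CPM in RPG1, 2.65 to 16.1 in RPG2 and 5.78 to 16.1 in RPG3. *Foxa2* led the RPG1 sum, with a mean of 51.4 CPM, and 2 of the 5 genes had means under 1 CPM there. The part of these markers was not tested. The RPG4 libraries had 30.97 and 55.6 CPM, inside the RPG1 range (-0.15 ± 0.36, adjusted p = 0.768) and above every RPG3 library.

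*Sp5* was higher in RPG4 than in RPG3 by 2.87 ± 0.61 (adjusted p = 0.0063), 1 of 2 members called of 8 tested, beside 3.23% of all genes. That call rested on 2 RPG4 libraries. Without the first, day 20 replicate 1, the difference was 3.20 (adjusted p = 0.0283), and without the second, day 20 replicate 2, 2.42 (adjusted p = 0.152). Leaving out any one of 4 of the RPG3 libraries (day 18 replicates 3 and 5, day 20 replicate 2 and day 23 replicate 1) also took the adjusted p above the threshold, to 0.0112 to 0.0131, with a difference of 2.75 to 2.86. Both RPG4 libraries also gave RPG3 cells, and with the library as a block it was 2.58 (adjusted p = 0.0123). The mesendoderm markers summed to 143 and 200 CPM in RPG4 and to 5.78 to 16.1 in RPG3. In RPG4 *Eomes* led the sum, with a mean of 97.0 CPM, and not *Foxa2*, which led in RPG1. The part of these markers in this difference was not tested.

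*Axin2* encodes the inducible scaffold of the destruction complex, a feedback inhibitor. In RPG1 it had a median of 7.35 CPM, from 6.13 to 26.3, with the highest value in day 20 replicate 1. The RPG2 libraries had 48.1, 24.2 and 53.6 CPM, so only that 1 RPG1 library overlapped them. In RPG2 25 of 47 cells had UMIs of *Axin2*, and 1 cell held 30.3% of them. *Axin2* was higher in RPG2 by 2.17 ± 0.44 (adjusted p = 0.000906), and by 2.66 within batch B2 (adjusted p = 0.026). Without RPG2 day 14 replicate 6 the difference was 1.82 (adjusted p = 0.0116). In RPG3 it ran from 3.18 to 30.8 CPM with a median of 11.2, past the RPG1 range at both ends, and was not called (0.41 ± 0.46, adjusted p = 0.469). The RPG4 libraries lay far apart, at 57.2 and 11.9 CPM (1.72 ± 0.57, adjusted p = 0.028, not called). *Axin2* and *Sp5*, both common readouts of the pathway, thus stood at opposite ends in RPG2 of the original condition, where the first was at its highest and the second at its lowest median among the reprogramming clusters.

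*Nkd1*, whose product binds Dishevelled and restrains signalling, had a median of 37.5 CPM in RPG1, from 8.89 to 53.1. The 8 RPG3 libraries ran from 0.744 to 11.8 with a median of 4.73, and overlapped RPG1 through the lowest RPG1 library, day 18 replicate 3. The gene was lower in RPG3 by -2.46 ± 0.46 (adjusted p = 0.000126). Within batch B1 the difference was -2.58 (adjusted p = 8.7e-05) and within B2 -1.71 (adjusted p = 0.287), where RPG1 had 2 libraries. The RPG2 libraries had 17.8, 0.711 and 6.70 CPM (-1.92 ± 0.64, adjusted p = 0.0262) and the RPG4 libraries 6.75 and 15.3 (-1.61 ± 0.55, adjusted p = 0.0337), neither of which was called by edgeR, while DESeq2 called both (adjusted p = 0.00378 and 0.00922).

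Among the DNA-binding effectors, *Tcf7l1* was higher than in RPG1 in RPG2, RPG3 and RPG4, *Lef1* was higher in RPG3 and RPG4 and did not pass the test in RPG2, and *Tcf7* was lower in RPG2. *Tcf7l1*, mainly a repressor, had 8.18 to 19.3 CPM in RPG1 with a median of 10.7. The RPG2 libraries had 155, 72.5 and 117 CPM, the RPG3 libraries 37.4 to 85.0 with a median of 78.8, and the RPG4 libraries 83.8 and 110.5. Every library of the later clusters lay above every RPG1 library. The gene was higher by 3.36 ± 0.30 in RPG2, 2.66 ± 0.25 in RPG3 and 2.96 ± 0.33 in RPG4 (adjusted p = 2.41e-07, 1.05e-08 and 3.04e-06). The within-batch values were 3.24 in RPG2 (B2), 2.51 and 2.77 in RPG3 (B1 and B2) and 2.99 in RPG4 (B1), each called. From SSC1-4, where the 36 libraries ran from 0 to 16.3 CPM with a median of 4.72, to RPG1 the difference was 1.25 ± 0.35 (adjusted p = 0.0208), which did not pass.

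*Lef1*, which mostly activates with beta-catenin, had 1.42 to 9.19 CPM in RPG1 with a median of 3.24. The 8 RPG3 libraries ran from 51.6 to 106.5 with a median of 68.2 and the RPG4 libraries had 145 and 106. The groups did not overlap, and *Lef1* was higher by 4.38 ± 0.35 in RPG3 and by 4.97 ± 0.45 in RPG4 (adjusted p = 1.24e-09 and 3.4e-07). Within batches the RPG3 value was 4.94 (B1) and 3.38 (B2), both called. In RPG2 the libraries had 39.6, 0.711 and 0 CPM, and 1 cell held 92.6% of the UMIs of the cluster (1.74 ± 1.01, adjusted p = 0.181). Between RPG2 and RPG3 the libraries did not overlap, but the difference of 2.63 ± 0.90 was not called (adjusted p = 0.106). In RPG2, then, *Tcf7l1* was high in every library and had UMIs in 44 of 47 cells, while *Lef1* had UMIs in 7 of 47.

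*Tcf7*, encoding TCF1, ran from 44.6 to 125 CPM in RPG1 with a median of 77.1. The RPG2 libraries had 30.3, 17.5 and 29.6 CPM, all below RPG1, and the gene was lower by -1.51 ± 0.32 (adjusted p = 0.00151). That value sits just past the fold threshold of 1.44 on the log2 scale. Without RPG2 day 14 replicate 5 it was -1.36, and without RPG1 day 18 replicate 3 or day 20 replicate 2 -1.42, each short of the threshold, and within batch B2 it was -1.61 (adjusted p = 0.0705). The RPG3 libraries ran from 16.6 to 65.8 with a median of 30.4, where day 18 replicate 3 alone overlapped RPG1 (-1.14 ± 0.26, adjusted p = 0.000762, short of the fold threshold). The RPG4 libraries had 32.96 and 52.6 CPM (-0.95 ± 0.34, adjusted p = 0.0398).

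*Wnt7b*, the ligand among the members, was detected mainly in RPG2. Its 3 libraries had 32.5, 7.82 and 10.8 CPM, from 217 UMIs that came from 14 of 47 cells, and the cell with the most held 24.0% of them. The 7 RPG1 libraries held 4 UMIs together, the 8 RPG3 libraries 16 and the 2 RPG4 libraries 0. In RPG3 and RPG4 against RPG1 the gene was not tested. Where RPG2 was compared with RPG1 or RPG3, it passed the filter on low counts through RPG2, so these calls depend on its being high there. The gene was higher in RPG2 than in RPG1 by 8.21 ± 0.91 (adjusted p = 2.86e-06), a fitted fold that depends on the 4 UMIs of RPG1, and by 9.60 within batch B2 (adjusted p = 0.00856). Without RPG2 day 12 replicate 2 it was 7.45 and without RPG1 day 23 replicate 1 8.84, both called. When libraries were summed per batch and day it was 2.66 (adjusted p = 0.384). In RPG3 against RPG2 *Wnt7b* was lower by -5.98 ± 1.08 (adjusted p = 0.00415), the 1 member called of 8 tested, where 1.03% of all genes were. Without RPG3 day 18 replicate 5 that value was -5.90 (adjusted p = 0.0111), without RPG2 day 12 replicate 2 -5.21 (adjusted p = 0.0428), and within batch B2 -5.90 (adjusted p = 0.141).

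*Lgr5* and *Cdx1* stayed low in most clusters. *Lgr5*, the R-spondin receptor of stem cells in several epithelia, had at most 3.20 CPM in RPG1, 0 UMIs in RPG2 and 6 UMIs in all of RPG3. The RPG4 libraries had 17.9 and 2.22 CPM, from 56 UMIs of which 1 cell held 78.6%. Against RPG3 the gene thus passed the filter on low counts through RPG4, where it is high. The difference from RPG3 was 6.52 ± 1.33 (adjusted p = 0.00445), but without day 20 replicate 1 of RPG4 it was 4.21 (adjusted p = 0.293) and without day 20 replicate 2 7.37 (adjusted p = 0.00777). With the library as a block it was 5.755 (adjusted p = 0.0883), and with at least 10 cells a sum 4.77 (adjusted p = 0.18), not called in either. *Cdx1*, a homeobox gene of posterior patterning, had a median of 0.227 CPM in RPG1 and 4.22 in RPG3 (2.33 ± 0.92, adjusted p = 0.0384, not called), and 0, 1.42 and 17.8 CPM in RPG2. Both RPG4 libraries had 0 UMIs, which allows up to 3 counts in their sum. In pooled sums this places *Cdx1* at least 10.3-fold lower than in RPG3 (adjusted p = 0.0773, not called). Single RPG3 libraries ran from 0 to 8.65 CPM, so the groups overlapped.

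**Figure D2:**
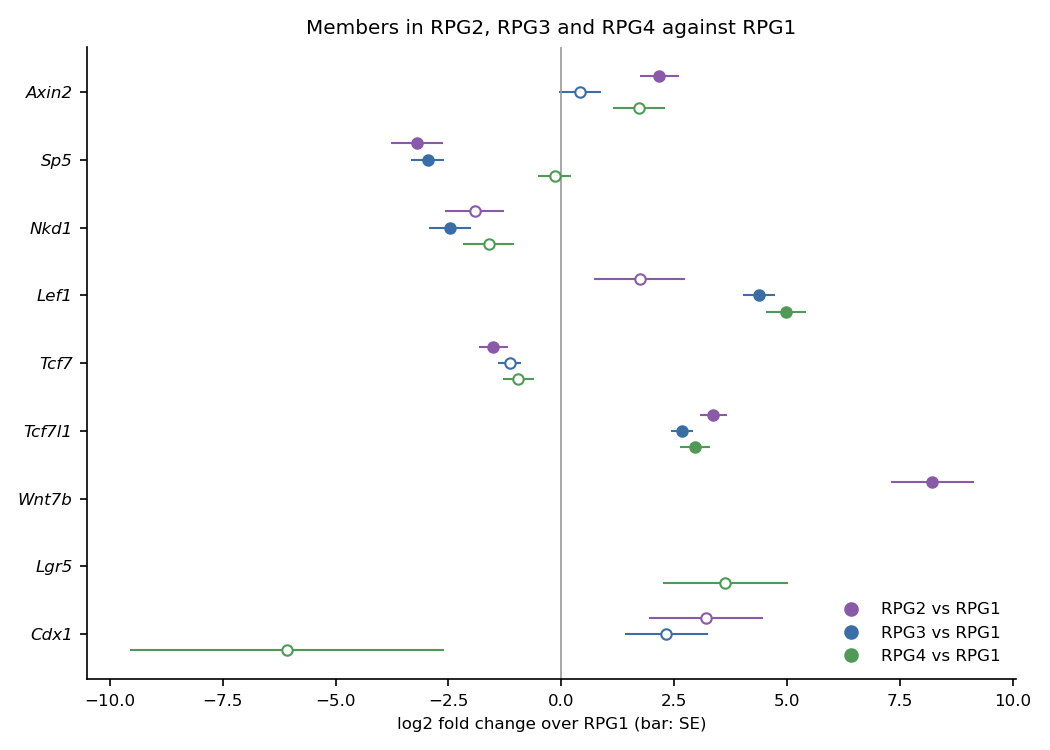
Log2 fold change of each member over RPG1 in RPG2, RPG3 and RPG4 with its SE (bars) from edgeR, filled where the gene was called and open where it was not; genes that did not pass the filter on low counts have no point. *Tcf7l1* lies between 2.66 and 3.36 in all 3 clusters, *Sp5* near -3 in RPG2 and RPG3 and near 0 in RPG4, and *Wnt7b* was tested only in RPG2.

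The other 99 genes of 6 Wnt lists (ligands, receptors, extracellular modulators, cytoplasmic and nuclear components and other targets) showed calls in both directions. In RPG2 against RPG1, 7 of 70 tested were higher and 6 lower, beside 16.1% of all genes called. The median log2 fold change over the 70 was -0.06, as over all genes, but those of the single lists ran from -1.15 for 7 ligands, -0.92 for 11 extracellular modulators and -0.74 for 14 receptors to 0.73 for 8 other targets. *Tbx3*, a T-box factor of naive pluripotency, was higher by 4.03 ± 0.56, *Notum*, an enzyme that inactivates Wnt proteins, by 3.81 ± 0.63 and the receptor *Fzd5* by 3.16 ± 0.72. *Ascl2* was lower by -5.32 ± 1.12, the secreted antagonist *Wif1* by -4.72 ± 0.80 and *Nkd2*, a relative of *Nkd1*, by -4.45 ± 1.04. In RPG3, 7 of 68 were higher, again led by *Notum* (4.04 ± 0.62), *Fzd5* (3.39 ± 0.56) and *Tbx3* (2.76 ± 0.46), and 10 were lower (20.8% of all genes were called), among them the R-spondin *Rspo2* (-3.97 ± 0.52), the ligand *Wnt3* (-3.87 ± 0.84) and Brachyury. *Notum* ran from 11.4 to 27.2 CPM in RPG2, from 6.70 to 83.4 in RPG3 and from 0.507 to 3.20 in RPG1. Its relation to the levels of the members was not tested. Between RPG2 and RPG3, 1 of 69 was called (1.03% of all genes), *Ascl2*, higher in RPG3 by 6.65 ± 1.22.

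In RPG4 against RPG1 8 of 82 listed genes were higher and 4 lower, beside 14.2% of all genes called. The homologue of *Sp5* named *Sp8* had 0 UMIs in RPG1 and 10.7 and 19.7 CPM in RPG4, at least 446.7-fold higher. The ligand *Wnt8a* was higher by 8.78 ± 0.97 and *Rspo3* by 5.46 ± 1.27, while *Wif1* was lower by -6.62 ± 1.10, *Rspo4* by -5.87 ± 1.002 and *Pygo1* by -5.74 ± 1.18. Against RPG3, where 3.23% of all genes were called, 8 of 81 were higher, led by *Sp8* (7.05 ± 1.08), *Frzb* (6.76 ± 1.30) and *Fgf8* (6.31 ± 0.70), and 1 lower, *Tbx3* (-5.25 ± 0.79). The median over the 81 was 0.45 beside -0.10 over all genes. In RPG1 against SSC1-4, *Myc* was higher by 2.59 ± 0.43, and *Dkk3* (-2.43 ± 0.54) and *Rspo4* (-1.60 ± 0.29) were lower, 3 of 83 tested beside 0.971% of all genes.

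**Figure D3:**
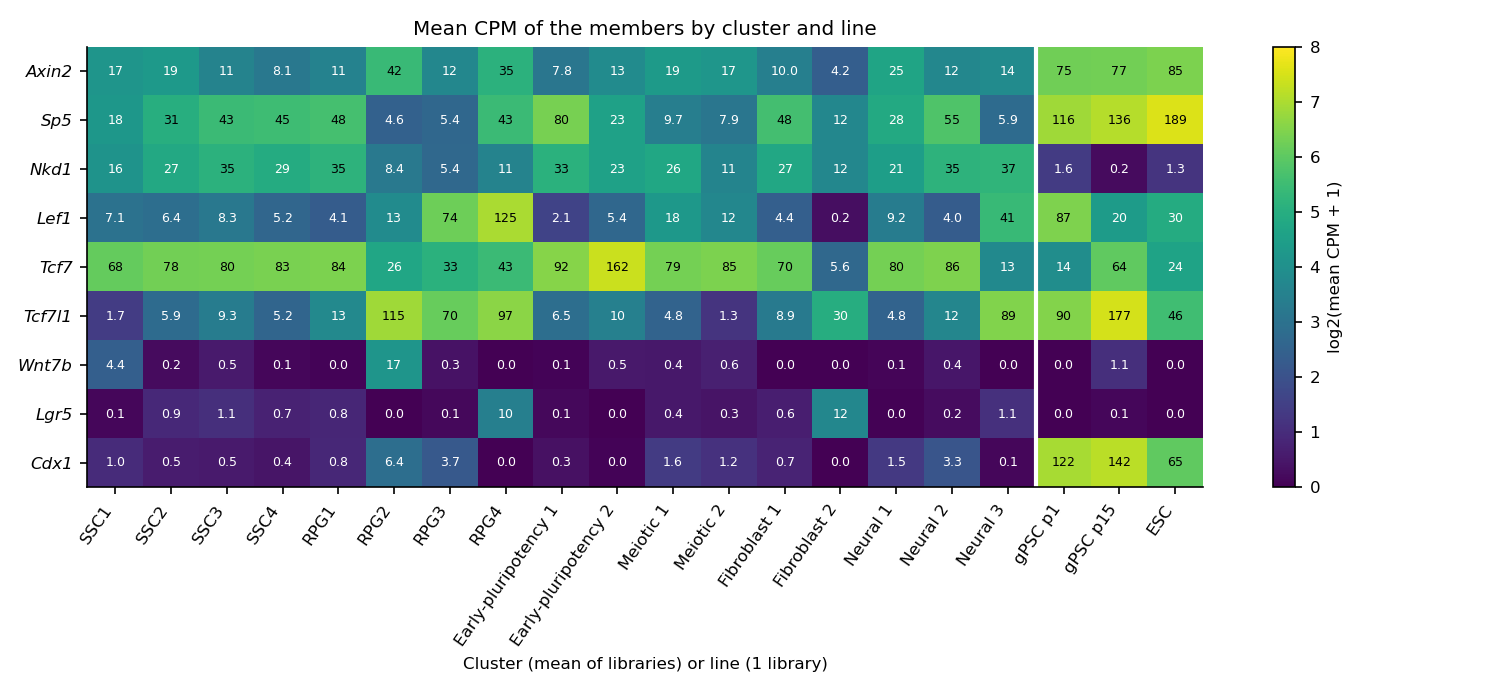
Mean CPM of each member (numbers in the cells) in the 17 clusters with at least 1 library of 5 cells, and the CPM in the gPSC and ESC libraries (right of the white line), coloured by log2(mean CPM + 1). *Axin2*, *Sp5* and *Cdx1* are highest in the 3 lines, *Lef1* in RPG4 and *Wnt7b* in RPG2.

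In the lines in ground-state medium *Axin2*, *Sp5* and *Cdx1* lay above every cluster mean, though single libraries of SSC clusters reached the levels of some lines for the first of them and for *Sp5*. As each line is 1 library, there is no test, and the intervals are exact Poisson ones at 95% that cover counting error only. *Axin2* had 75.3 CPM (70.8 to 80.0) in gPSC p1, 77.3 (72.1 to 82.7) in gPSC p15 and 85.2 (80.6 to 90.1) in ESCs, while the highest mean of a cluster was 42.0 ± 15.7 (SD, n = 3), in RPG2, and the highest single library had 85.1 CPM, in SSC1. *Sp5* had 116, 136 and 189 CPM, and the highest cluster, early-pluripotency 1, 80.3 ± 19.2 (n = 2), with single libraries of up to 155 CPM in SSC4 and 123 in SSC3. *Cdx1* had 122, 142 and 65.2 CPM, against at most 17.8 CPM in any summed library of RPG2, RPG3 or RPG4. These 3 targets were high in all 3 lines, in UMIs from most of their 48, 32 and 45 cells. *Nkd1*, also a target, went the other way, with 1.64 CPM (1.04 to 2.46), 0.185 (0.0224 to 0.667) and 1.28 (0.773 to 2.00). From 23 and 2 UMIs, its ratio of gPSC p15 to gPSC p1 was 0.113, with a counting interval of 0.0129 to 0.456.

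The 3 effectors differed between every pair of lines beyond counting error. *Lef1* had 87.4 CPM in gPSC p1, 19.8 in gPSC p15 and 29.5 in ESCs, a ratio of 0.226 (0.195 to 0.262) between the passages. *Tcf7* had 14.3, 64.4 and 24.0 CPM, a ratio of 4.52 (3.86 to 5.32) between the same passages. *Tcf7l1* had 90.3, 177 and 45.9 CPM. *Axin2* in gPSC p15 was 1.03 times the level of gPSC p1 (0.936 to 1.12), within counting error. *Wnt7b* had 0 UMIs in gPSC p1 and ESCs, which allows up to 0.214 and 0.203 CPM by the limit of 3 counts, and 12 UMIs from 1 cell in gPSC p15. *Lgr5* had 0, 1 and 0 UMIs.

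Across the clusters, each member had its own order of levels. *Sp5* had mean levels of 17.7 ± 13.6 CPM in SSC1 (n = 28 libraries), 31.1 ± 20.1 in SSC2 (n = 23), 43.2 ± 25.9 in SSC3 (n = 18) and 44.7 ± 31.9 in SSC4 (n = 16), and these neighbours overlapped. *Tcf7l1* in neural 3 had 89.2 ± 18.5 CPM (n = 2), a level within the range of RPG2 to RPG4, and *Lef1* 41.4 ± 5.98 there, where *Sp5* had 5.95 ± 0.612 and *Tcf7* 12.9 ± 4.38. *Nkd1* was at 36.8 ± 3.34 CPM in the same cluster. *Tcf7* was highest in early-pluripotency 2, at 162 CPM in 1 library, and lowest in fibroblast 2, at 5.58 ± 4.89 (n = 3). *Lgr5* had 11.95 ± 16.2 CPM in fibroblast 2 and 10.0 ± 11.1 in RPG4 (n = 2), and at most 1.15 in the mean of any other cluster.

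In the other branches few members were called. Against SSC1-4, 0 of 9 were called in the early-pluripotency class (0.216% of all genes were), by edgeR or by DESeq2, and 1 of 9, *Sp5*, had an unadjusted p below 0.05 (0.96 ± 0.45, p = 0.0374 and adjusted p = 0.261 in edgeR). In the neural class 0 of 8 were called (0.943% of all genes), by either tool, and 1 of 8, *Tcf7l1*, had an unadjusted p below 0.05 (1.03 ± 0.43, p = 0.0202 and adjusted p = 0.134 in edgeR). In the fibroblast class 1 of 9 was called (3.1% of all genes), *Lgr5*, by 3.44 ± 0.82 (adjusted p = 0.00343), and DESeq2 did not call it (adjusted p = 0.016). Its 5 libraries had 0.0911, 0.0995, 0, 30.5 and 2.73 CPM. The fourth, day 27 replicate 5, was the sum of 6 cells, and without it the difference was 0.38 (adjusted p = 0.954).

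In the meiotic class 1 of 9 was called (0.152% of all genes), *Sp5*, by -1.99 ± 0.42 (adjusted p = 0.00447). The 6 meiotic libraries had 4.39 to 11.1 CPM with a median of 7.51, inside the SSC1-4 range of 0 to 62.0. All 6 came from day 16, as did 5 libraries of SSC1-4. In those 5 the SSC1-4 level of *Sp5* was 6.26, 0, 22.2, 9.11 and 0 CPM, and in the 31 libraries of other days its median was 31.1. Compared inside the 5 libraries that held both classes, by a block for the library, the difference was 0.32 (adjusted p = 0.944). Leaving out each meiotic library in turn gave -2.14 to -1.86, with adjusted p of 0.0123 to 0.0217, each above the threshold. *Nkd1* showed the same day pattern, with a median of 4.91 CPM in SSC1-4 on day 16 and 28.7 on other days, beside 12.6 in the meiotic libraries (-0.84 ± 0.29, adjusted p = 0.112). The 5 SSC1-4 sums of day 16 held 7 to 33 cells. No meiotic library came from another day, and the part of day in the pooled comparison was not tested.

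**Figure D4:**
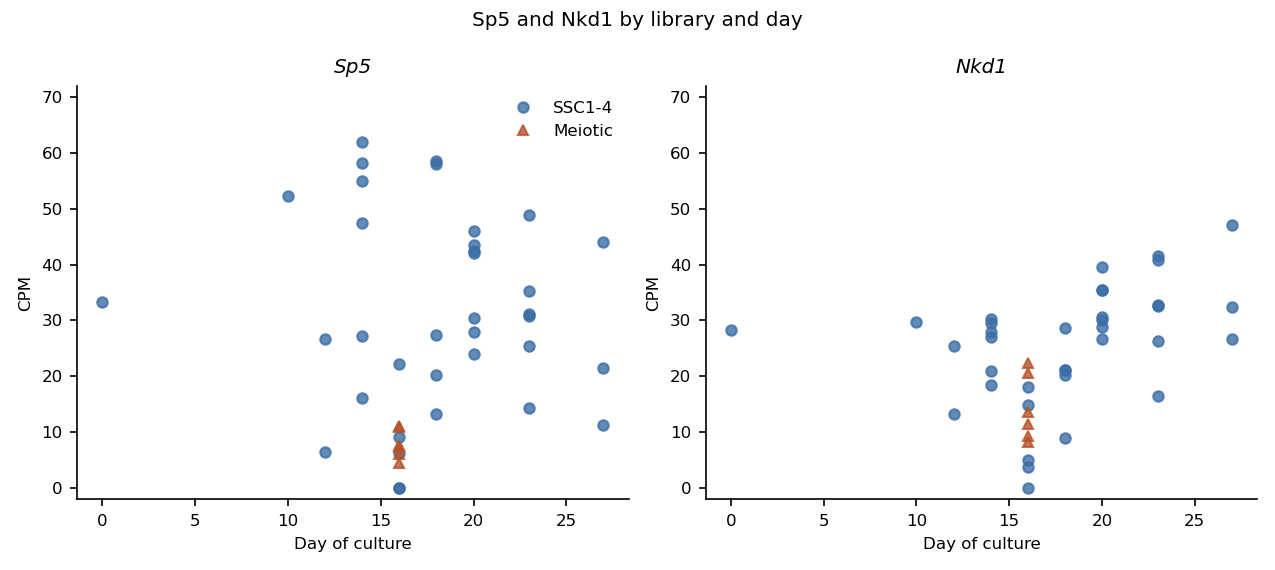
CPM of *Sp5* (left) and *Nkd1* (right) by day of culture in each SSC1-4 library (blue circles) and each meiotic library (orange triangles). On day 16 both classes are low, with *Sp5* in SSC1-4 between 0 and 22.2 CPM and in the meiotic libraries between 4.39 and 11.1 CPM.

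Under 5C, *Sp5* was higher than under DMSO in the cells assigned to SSC1-4 and to RPG3. In SSC1-4, the 8 samples under 5C had 35.1 to 127 CPM with a median of 75.4, and the 3 under DMSO had 8.78, 10.2 and 9.06. The groups did not overlap, and the difference was 3.03 ± 0.34 (adjusted p = 8.08e-07), 1 of 2 members called of 6 tested, where 4.91% of all genes were. In RPG3, the 6 samples under 5C had 56.98 and 37.5 CPM on day 12, 21.9 and 9.98 on day 14 and 21.5 and 7.72 on day 16, and the 2 under DMSO, both of day 20, had 0 and 0.183. That is 404 UMIs against 1, a ratio of 313 with a counting interval of 55.9 to 12390. It was the 1 member called of 6 tested, where 2.41% of all genes were, by 7.27 ± 1.195 (adjusted p = 0.000647). Without DMSO replicate 1 the value was 6.47 (adjusted p = 0.0257) and without DMSO replicate 2 9.08 (adjusted p = 0.0153), where the lone sample was taken to vary like the others. In RPG1, 0 of 5 members were called by edgeR or DESeq2 and 1 had an unadjusted p below 0.05, beside 0.973% of all genes, and *Sp5* had 114.5, 104.5, 54.9 and 21.9 CPM under 5C and 28.25 and 19.98 under DMSO (1.43 ± 0.65, unadjusted p = 0.0372 and adjusted p = 0.191).

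*Lef1* moved against *Sp5* in SSC1-4. The 5C samples held 2 UMIs in all, with 6 of 8 samples at 0, and the DMSO samples had 6.51, 9.89 and 10.7 CPM from 105 UMIs, a ratio of 0.00932 with a counting interval of 0.00111 to 0.0345. The gene was lower by -6.24 ± 1.11 (adjusted p = 0.000238), and by -7.00 without 5C replicate 5 (adjusted p = 7.96e-05). In RPG3 the 5C samples had 2.29, 0, 39.1, 1.02, 0 and 0 CPM and the DMSO samples 7.83 and 9.35, so 1 sample, 5C replicate 5, decided the mean (-0.51 ± 1.35, adjusted p = 0.846). *Axin2* in SSC1-4 had 2.64 to 15.3 CPM under 5C and 27.1, 34.1 and 16.2 under DMSO, without overlap, but the difference of -1.71 ± 0.50 was not called by edgeR (adjusted p = 0.0152) and was by DESeq2 (-1.75, adjusted p = 0.00778). In RPG3 it had 22.4 to 45.0 CPM under 5C and 8.38 and 2.38 under DMSO, again without overlap and in the other direction (2.205 ± 0.55, adjusted p = 0.012, not called by edgeR), and DESeq2 called it (2.19, adjusted p = 0.000233).

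A fit over both classes, with 19 sums of cells, tested whether the 5C difference was the same in them. Of the 5C samples 6 gave a sum to each class, and under DMSO the RPG3 sums came from replicates 1 and 2 and those of SSC1-4 from replicates 3, 4 and 5. The sums are thus not all independent, the classes under DMSO are also different samples, and a block for the sample could not be fitted. For *Axin2* the log2 difference was larger in RPG3 than in SSC1-4 by 3.91 (adjusted p = 0.00164 over 13698 genes). For *Sp5* the value was 4.35 (adjusted p = 0.0164), which did not pass the threshold of 0.01. *Cdx1* had 79 UMIs under 5C and 0 under DMSO in RPG3, at least 20.4-fold higher (adjusted p = 0.0361 in edgeR, not called, and 0.00318 in DESeq2, called), and 4 and 27 UMIs in SSC1-4, and its difference between the classes was 10.47 (adjusted p = 0.0119), short of it too. Between RPG3 and RPG1 the value of *Sp5* was 5.72 (adjusted p = 0.049 over 11755 genes, not passed).

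By edgeR neither *Tcf7* nor *Tcf7l1* was called with treatment in SSC1-4, RPG1 or RPG3, and DESeq2 called *Tcf7l1* in SSC1-4 alone. *Tcf7* in SSC1-4 had 93.9 to 158.5 CPM under 5C and 96.3, 129 and 110 under DMSO (0.13 ± 0.18, adjusted p = 0.664). *Tcf7l1* in SSC1-4 had 1.25 to 31.7 CPM with a median of 17.6 under 5C and 4.85, 4.78 and 5.83 under DMSO, and 7 of 8 samples lay above all DMSO samples (1.93 ± 0.56, adjusted p = 0.0159 in edgeR; 1.90, adjusted p = 0.00204 in DESeq2). In RPG3 it had 55.2 to 193 CPM under 5C and 48.8 and 52.4 under DMSO (0.81 ± 0.36, adjusted p = 0.143). *Nkd1* in SSC1-4 had 5.95 to 33.6 CPM under 5C and 33.9, 21.5 and 19.4 under DMSO (-0.21 ± 0.41, adjusted p = 0.76). Markers of other states moved with treatment too. In RPG3 the 8 pluripotency markers summed to 2700 to 3545 CPM under 5C and to 3621 and 3889 under DMSO. The 8 SSC markers summed there to 754 to 1067 CPM under 5C and to 407 and 457 under DMSO. In SSC1-4 the 11 feeder and fibroblast markers summed to 8.15 to 48.9 CPM under 5C and to 48.6 to 72.7 under DMSO. The 5 mesendoderm markers summed there to 39.0 to 84.3 CPM under 5C and to 18.5 to 39.6 under DMSO. The part of these markers in these differences was not tested.

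**Figure D5:**
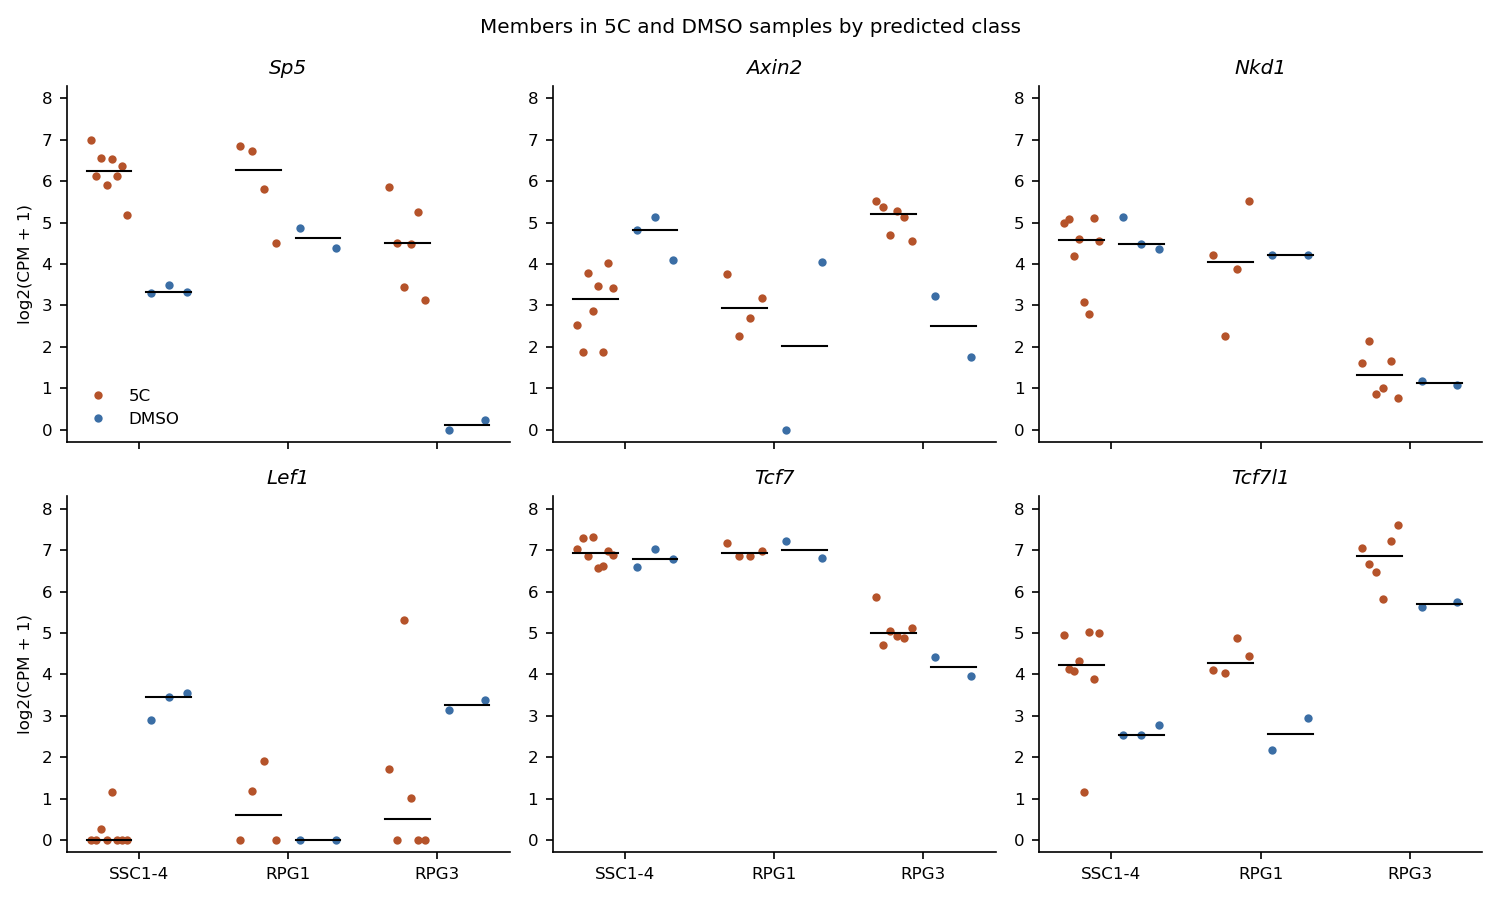
Log2(CPM + 1) of 6 members in each scTrio-seq2 sample under 5C (orange) and DMSO (blue) in the predicted classes SSC1-4, RPG1 and RPG3, with the median as a black line. *Sp5* is higher under 5C in SSC1-4 and in RPG3, and *Axin2* lies below DMSO in SSC1-4 and above it in RPG3.

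Within the 5C samples the classes are compared here by counts, without a test. In the 6 samples that held both SSC1-4 and RPG3 cells, *Axin2* and *Tcf7l1* were higher in RPG3 in 6 of 6, and *Sp5*, *Tcf7* and *Nkd1* were lower in 6 of 6. The 3 samples with RPG2 cells under 5C, of 23 cells in all, had 127, 179 and 90.2 CPM of *Tcf7l1* and 0 of *Lef1*. They had 134, 62.3 and 79.0 CPM of *Sp5*, however, above the 1.42 to 10.4 of RPG2 in the original condition, which was measured by another method. Their *Axin2* levels were 30.9, 2.65 and 133 CPM, from 47, 2 and 59 UMIs, so a low *Sp5* beside a high *Axin2* was not seen in any of them. The 1 DMSO sample with RPG2 cells, 5 of them, had 0 UMIs of either gene. The 1 sample with RPG4 cells under 5C had 249.7 CPM of *Sp5*, and the 2 under DMSO had 0 UMIs of it in 504467 and 602826, which allows up to 3 counts each.

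Among the 99 listed Wnt genes, 3 of 67 were higher and 3 lower under 5C in SSC1-4, beside 4.91% of all genes called. *Ccnd1*, encoding cyclin D1, was higher by 2.75 ± 0.53 and *Fzd2* by 1.97 ± 0.28, together with Brachyury. *Dkk3* was lower by -3.64 ± 0.67, *Tcf7l2* by -1.61 ± 0.34 and *Sfrp1* by -1.59 ± 0.36. In RPG3, 5 of 52 were higher and 0 lower (2.41% of all genes were called), among them *Porcn*, the enzyme that acylates Wnt proteins (2.69 ± 0.58), *Myc* (1.78 ± 0.41) and the R-spondin receptor *Lgr4* (1.55 ± 0.33). The median over the 52 was 0.76 beside 0.07 over all genes. In RPG1, 1 of 43 was called (0.973% of all genes), *Ccnd1*, higher by 2.04 ± 0.46. In the original condition, 8 of 90 were higher in fibroblasts than in SSC1-4 (3.1% of all genes were called). They were led by *Dkk2* (6.46 ± 0.77), *Wnt2* (4.75 ± 0.72) and *Wls* (4.48 ± 0.45). The fibroblast libraries spread widely, with *Dkk2* from 0 to 172 CPM (mean 36.2), *Wnt2* from 0.267 to 69.2 (mean 16.8) and *Wls* from 2.0 to 91.4 (mean 46.4). The 11 feeder and fibroblast markers summed to 378 to 2637 CPM there. In the neural class 1 of 81 was higher, *Wls* (2.33 ± 0.50), beside 0.943% of all genes, and by edgeR 0 of 94 and 0 of 86 were called in the early-pluripotency and meiotic classes, beside 0.216% and 0.152%.

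The genes whose levels were most like those of *Axin2* and *Sp5* were found over 21 points, the 18 clusters and 3 lines, among 11757 genes with at least 20 CPM in 1 of them, as Pearson's r of log2(CPM + 1). For *Axin2* they were *Lypla1* (0.877), *Ido2* (0.869) and *Fancm* (0.866), and for *Sp5* *Kdm2b* (0.831), *Dopey2* (0.789) and *Cd3g* (0.774). The points share libraries, so this is a description.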

How the data were processed

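The authors deposited tables of UMI counts per gene and cell, made with UMI-tools, STAR 2.7.2b on mm10 and featureCounts 2.0.0, after removing cells of few genes or much mitochondrial RNA. Clusters came from Seurat in their metadata, and classes of scTrio-seq2 cells from scPred. The raw counts were used here as deposited and summed per class and library (sample for scTrio-seq2) with at least 5 cells, where library names that the barcode table gives to the same sample were added together. Sums ranged from 252459 to 34168335 UMIs, so a level near that of 3 UMIs in a shallow sum has little precision.

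Groups were compared by edgeR 4.0.16 (R 4.3.3; TMM, filterByExpr, quasi-likelihood F test) over all genes that passed the filter, without covariates. Calls needed both an adjusted p (Benjamini-Hochberg) below 0.01 and a change of at least 1 on the natural-log scale (1.44 on the log2 scale). 5C and DMSO were compared over the 15426 genes of both tables. The fit was tested on simulated data. Exact Poisson or binomial intervals (scipy 1.17.1) are at 95%.

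The named genes are the 9 members, in each comparison up to 3 called genes a direction with the largest change from 6 Wnt lists, and 3 genes most like each of *Axin2*, *Sp5* and *Lef1*. The likeness result for *Lef1* is not reported here. Members and lists were chosen with earlier results of these data known. Alternatives were DESeq2 1.42.0, no filter, at least 10 cells, sums per batch and day, batch or library as a term, an adjusted p below 0.05 with no fold threshold, and leaving out each library. Fits within a batch, the fit over genes of either scTrio-seq2 table and the treatment-by-class fits were added after the data were seen. DNA methylation and chromatin data were not used here.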

Additional observations from a re-analysis of the deposited data

Results flagged for a closer look

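The values here were picked out because 1 sample stood far from the others of its group by Dixon's test, or because a 5C difference was not the same in different classes. Dixon's test picked 8 of 50 groups, where chance picks about 1 in 20.

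*Axin2* in RPG1 was 26.3 CPM in day 20 replicate 1, from 379 UMIs in 52 cells, and the next library had 11.4 CPM. *Tcf7* in RPG3 was 65.8 CPM in day 18 replicate 3, against 38.2 in the next. *Lgr5* in RPG1 was 3.20 CPM in day 18 replicate 5, from 23 UMIs. *Wnt7b* in RPG3 was 1.27 CPM in day 12 replicate 2, which is 2 UMIs. *Lgr5* among fibroblasts was 30.5 CPM in day 27 replicate 5, from 74 UMIs in 6 cells, and *Cdx1* there was 2.79 CPM in day 14 replicate 2. Under 5C in RPG3, *Lef1* was 39.1 CPM in replicate 5, from 192 UMIs in 54 cells, with 2.29 CPM in the next sample, and *Tcf7* was 57.5 CPM in replicate 1, with 33.7 in the next.

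The 5C difference was larger in RPG3 than in SSC1-4 by 3.91 for *Axin2* on the log2 scale (adjusted p = 0.00164 in edgeR). At an adjusted p between 0.01 and 0.05, short of the threshold used for calls, the value was 10.47 for *Cdx1* and 4.35 for *Sp5* (adjusted p = 0.0119 and 0.0164), and for *Sp5* in RPG3 less that in RPG1 5.72 (adjusted p = 0.049). The sums in these fits are not all from different samples. The value of *Cdx1* is a fitted one against 0 UMIs under DMSO in RPG3 and depends on the prior count.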

How the results depend on the processing

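The 19 calls of members were recomputed under 342 alternatives in all, of which 294 kept the call, 47 kept the direction and lost it, and 1 reversed it. The 7 calls kept under every alternative run were *Lef1*, *Sp5* and *Tcf7l1* in RPG3 and *Lef1* and *Tcf7l1* in RPG4 against RPG1, *Tcf7l1* in RPG2 against RPG1, and *Sp5* under 5C in SSC1-4. The reversed one was *Sp5* in the meiotic class, 0.32 with the library as a block. The cause of these changes was not tested.

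Counts of members called moved as follows. For RPG2 against RPG1 the 5 became 1 with sums per batch and day and 2 within batch B2. They became 6 with DESeq2, with at least 10 cells and at an adjusted p below 0.05 with no fold threshold. For RPG3 against RPG1 the 4 became 3 within batch B2 and 6 at an adjusted p below 0.05 with no fold threshold. For RPG3 against RPG2 the 1 became 0 with sums per batch and day, with batch as a covariate and within batch B2. For RPG4 against RPG3 the 2 became 1 with at least 10 cells and with batch as a covariate, and 0 with sums per batch and day and with the library as a block. For fibroblasts the 1 became 0 with DESeq2, at least 10 cells, sums per batch and day, the library as a block and within batch B1. For the meiotic class the 1 became 0 with sums per batch and day, the library as a block and within either batch. In the neural class 0 became 1 with at least 10 cells. With an adjusted p below 0.05 and no fold threshold, 0 became 1 in RPG1 against SSC1-4, 2 became 5 in RPG4 against RPG1, and 5C gave 4 in SSC1-4 and 3 in RPG3. DESeq2 gave 4 under 5C in SSC1-4, adding *Axin2* and *Tcf7l1*, and 3 in RPG3, adding *Axin2* and *Cdx1*. Leaving out each library in turn gave 4 to 6 for RPG2 and 2 to 3 for RPG4 against RPG1, 0 to 1 for RPG3 against RPG2, 0 to 2 for RPG4 against RPG3, 0 to 1 for fibroblasts, 0 to 0 for the meiotic class, 2 to 3 for 5C in SSC1-4 and 0 to 1 for 5C in RPG3.

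Replicate numbers 3, 4 and 5 occur under both 5C and DMSO in SSC1-4. Deviations of samples with the same number correlated at 0.0597, -0.012 and -0.0251, so they share only a number. With that number as a replicate block 1 member was called instead of 2, *Lef1* having -4.94 (adjusted p = 0.0246), and 543 genes instead of 602. No paired analysis was possible because 5C and DMSO samples with RPG1 cells, and those with RPG3 cells, share only 1 number. The library block could not be fitted for RPG2 against RPG1 or RPG3 against RPG2, which share 0 libraries and 1.

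Calls over all genes ranged more widely. They ran from 1 to 892 around 160 for RPG1 against SSC1-4, from 398 to 5484 around 2323 for RPG2, from 539 to 6911 around 2790 for RPG3 and from 548 to 5003 around 2220 for RPG4 against RPG1, from 2 to 585 around 140 for RPG3 against RPG2, and from 185 to 1327 around 472 for RPG4 against RPG3. The extremes were fits within a batch, with the library as a block with sums per batch and day or without 1 library, and the adjusted p below 0.05. For fibroblasts they ran from 0 to 950 around 533, for the early-pluripotency class from 0 to 430 around 39, for the meiotic class from 0 to 417 around 26 and for the neural class from 0 to 1218 around 147. Under 5C they ran from 373 to 2604 around 602 in SSC1-4, from 30 to 525 around 91 in RPG1 and from 41 to 1775 around 275 in RPG3, and DESeq2 gave 515 in RPG3. RPG4 had 2 libraries and DMSO had 2 samples in RPG3, which limits every value that rests on them.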

Other observations

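*Lef1* in cells assigned to RPG3 was 7.83 and 9.35 CPM in the scTrio-seq2 samples under DMSO and 51.6 to 106.5 CPM in the 8 STRT-seq libraries of RPG3. The assays, the days and the way classes were assigned differ, so no comparison was made. In 5C replicate 5, whose *Lef1* level in RPG3 was 39.1 CPM, 5 cells were assigned to RPG4, and they had 5.51 CPM of *Lef1* and 249.7 CPM of *Sp5*.

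In SSC1-4 the highest level of *Wnt7b* was 60.0 CPM, in day 16 replicate 6, from 26 UMIs in a sum of 8 cells, while 22 of 36 libraries had 0. The same day held the highest *Tcf7* of that class, 242 CPM, and the highest *Cdx1*, 14.7 CPM.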
